A study of Homo sapiens with 9 samples.

Results

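The messenger RNAs of translation initiation factors were examined in cells of the triple-negative breast cancer line MDA-MB-231 that had survived ferroptosis inducers. The genes were the protein-coding genes of the deposited tables whose symbol starts with EIF1 to EIF6. The eIF2 kinases (EIF2AK genes) and symbols with a hyphen, which mark read-through or antisense genes, were left out. This rule gave 52 genes of 58735 in the tables, and it used no measured value.

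RNA sequencing covered 3 conditions with 3 libraries each. The vehicle cells received the solvent DMSO. The erastin-R cells had survived rising amounts of erastin, which blocks cystine uptake through system xc-, and the RSL3-R cells had survived rising amounts of RSL3, which inhibits the lipid peroxide reductase GPX4. All 9 libraries came from the same parental line, with no engineered allele, and the resistant cells are survivors of drug pressure rather than a defined genetic model. The sample labels call them treated with erastin or RSL3. They are called resistant here for short, as the study reports measured resistance for lines that it describes apart from the sequenced survivors. Doses and durations for these libraries were not used here. The sources do not say whether libraries of a condition came from separate cultures, so the p-values measure the spread between these libraries, which may be technical.

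Initiation factors bring the ribosome to the start codon of an mRNA. The cap-binding protein eIF4E, the scaffold eIF4G and the helicase eIF4A recruit the small ribosomal subunit, which carries eIF1, eIF1A, eIF3, eIF5 and the initiator tRNA held by eIF2. After start codon recognition eIF5 triggers GTP hydrolysis by eIF2, and eIF2B then reloads eIF2 with GTP. Stress kinases phosphorylate the alpha subunit of eIF2, which blocks eIF2B, and hypophosphorylated 4E-BPs sequester eIF4E. Most of this control acts on the proteins, which were not measured in these libraries.

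Total counts ranged from 15405102 to 17273464 per library, and the 52 genes together took 0.833 to 0.911% of them. Among markers of the line, VIM, CD44, AXL and EGFR lay between 230.5 and 1581 CPM (counts per 1000000 counts of the library), while ESR1, PGR, CDH1 and EPCAM were at 3.804 CPM or less. Of the 4 blood and endothelial markers, HBB had no count in any library, CDH5 and PTPRC reached 0.182 and 1.49 CPM, and the summed level was 9.93 to 11.3 CPM in vehicle, 1.46 to 2.80 in erastin-R and 13.0 to 15.3 in RSL3-R libraries, nearly all of it PECAM1. Mitochondrial genes took 7.97 to 8.93% of counts in vehicle, 5.55 to 7.95% in erastin-R and 9.52 to 10.2% in RSL3-R libraries. The erastin-R libraries varied most. Over the 50 initiation factor genes tested, the median absolute log2 difference of a library from the others of its condition was 0.185, 0.163 and 0.0939 in erastin-R libraries 1, 2 and 3, against 0.0387 to 0.0960 in vehicle and 0.0454 to 0.0468 in RSL3-R libraries. Over all genes tested library 1 differed most, at 0.211, against 0.140 and 0.146 in libraries 2 and 3, and it also had the highest mitochondrial share of its condition. Without library 1, 6 genes more were called in erastin-R cells, 4 in RSL3-R cells and 10 between the resistant populations, and 1 call, that of EIF3M in erastin-R cells, was lost. The shares of all genes called in that fit are not given here, so these counts cannot be read as particular to initiation factor genes. Library 1 was singled out after the values were seen. Leaving out a library that deviates narrows the spread, so p-values without library 1 are given as a description. The part of mitochondrial content in these results was not tested.

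Start codon contexts are shown for factors that select the start codon or join the subunits, because these set how strictly a start codon is chosen, with 2 subunits of eIF2 and with EIF4G2 for its start codon. The genes were picked after the values were seen. The bases are those of annotated transcripts in GENCODE release 29 (GRCh38), 5′ to 3′, with the start codon in capitals.
EIF1: tcgtatcgtATGt
EIF1B: tagtatcgcATGt
EIF1AX: gccaccgccATGc
EIF5: taagccaaaATGt
EIF5B: tgacaagcaATGg
EIF2S1: tacctcagaATGc
EIF2S2: gccgcagccATGt
EIF4G2: gccgccaaaGTGg

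A purine at the third base before the start codon and a G right after it make a strong context. EIF1 and its paralog EIF1B had neither, a class that held 6.91% of 18487 human genes with a principal transcript, and 4 of 50 initiation factor genes. EIF1 is textbook for this weak context, through which its own protein limits its translation. EIF1AX, EIF5, EIF2S1 and EIF2S2 had only the purine, as did 42.4% of all genes, and EIF5B had both, as did 42.6%. EIF4G2, which encodes the cap-independent scaffold also called DAP5, is annotated with a GTG start, and as it has no principal transcript that starts at an ATG it is not among the 50.

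Levels were compared between genes per length, as TPM, the counts divided by the gene lengths of the tables and scaled to the same sum in every library. In vehicle cells the highest means were those of EIF4H, an eIF4A cofactor, with 445 ± 38.7 TPM (SD, n = 3), EIF5A with 435 ± 33.4 and EIF1 with 427 ± 32.4, and these 3 did not differ beyond their spread. The scaffolds EIF4G2 and EIF4G1 followed with 383 ± 5.06 and 375 ± 15.6 TPM, again within their spread, and then the helicase EIF4A2 with 339 ± 8.58. The cap-binding protein EIF4E was low at 16.2 ± 0.853 TPM, and its inhibitor EIF4EBP1 stood at 164 ± 15.2 TPM. The lengths used join all annotated exons of a gene, 14067 bases for EIF4E and 1073 for EIF4EBP1. The size of this gap depends on them, as the vehicle means in CPM were 68.9 for EIF4E and 53.0 for EIF4EBP1. The lowest detected gene was EIF4E3 with 0.587 ± 0.084 TPM. EIF4E1B, the oocyte form of eIF4E, had 0 counts in all 9 libraries, which allows at most 0.174 to 0.195 CPM (3 counts per library, counting error only). EIF4E1B and the Y-linked EIF1AY did not pass the filter on low counts, so 50 of the 52 genes were tested. Summed over all 52 genes the level was 6017 to 6299 TPM in vehicle, 6192 to 6524 in erastin-R and 6139 to 6292 in RSL3-R libraries, and these ranges overlapped. The share of counts given above, which is not divided by length, was instead lowest in the erastin-R libraries.

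**Figure D1:**
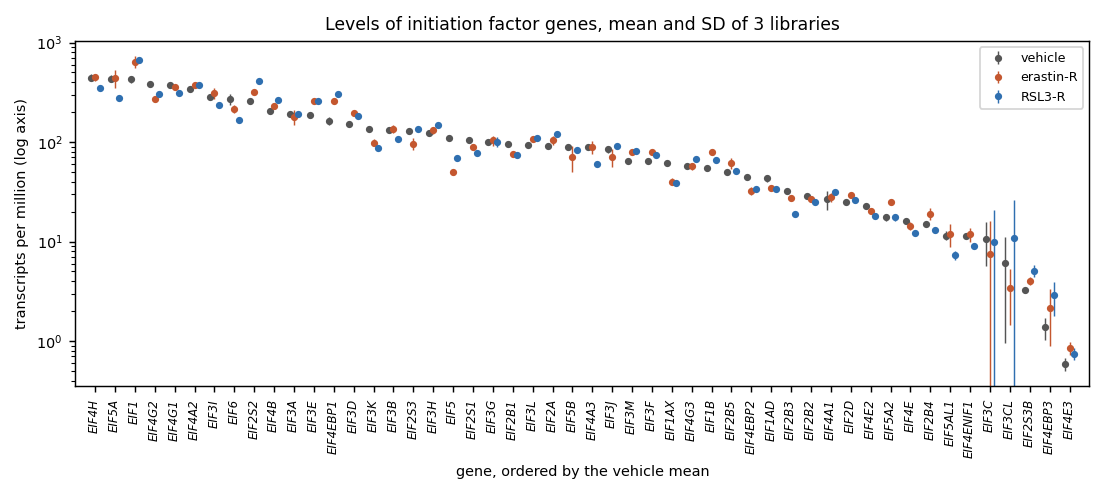
Mean TPM (log axis) with SD of 3 libraries for each initiation factor gene with a count, ordered by the vehicle mean, in vehicle, erastin-R and RSL3-R cells. Vehicle means ran from 445 TPM for EIF4H to 0.587 for EIF4E3, and where an SD reached the mean (EIF3C and EIF3CL) the bar runs off the lower edge.

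The first question was how many of these mRNAs differed between resistant and vehicle cells. Tests were edgeR's quasi-likelihood test on the counts in 1 model of all 9 libraries, with Benjamini-Hochberg adjustment over all 16188 genes tested. At an adjusted p under 0.05, 10 of the 50 genes were higher and 16 lower in erastin-R than in vehicle cells. Over all genes tested 27.1% were higher and 26.8% lower in that comparison. In RSL3-R cells 14 were higher and 19 lower, where 23.8% of all genes were higher and 24.9% lower. Between the resistant populations 14 were higher and 10 lower in RSL3-R than in erastin-R cells, beside 22.3 and 26.9% of all genes. The share of these genes that changed was thus near the background in each comparison, apart from 19 of 50 lower in RSL3-R cells, and no test of that share was made.

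The changes were small. The median absolute log2 fold change of the 50 genes was 0.25 for erastin-R and 0.33 for RSL3-R cells, beside 0.40 and 0.35 over all genes. EIF5 in erastin-R cells was the only called gene of the 50 that moved by 1 or more on the log2 scale in any comparison, whereas 13.4% of all genes did so in erastin-R and 10.1% did so in RSL3-R cells against vehicle, and 10.3% did between the resistant populations. With all libraries no gene was called in opposite directions in the comparisons with vehicle. EIF4G3 and EIF3H were when erastin-R library 1, singled out after the values were seen, was left out. Both were then lower than vehicle in erastin-R cells but higher than vehicle in RSL3-R cells. Those comparisons share the vehicle libraries, so their values are given side by side. In bulk RNA a lower share of one kind of cell and less of the mRNA per cell cannot be told apart.

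**Figure D2:**
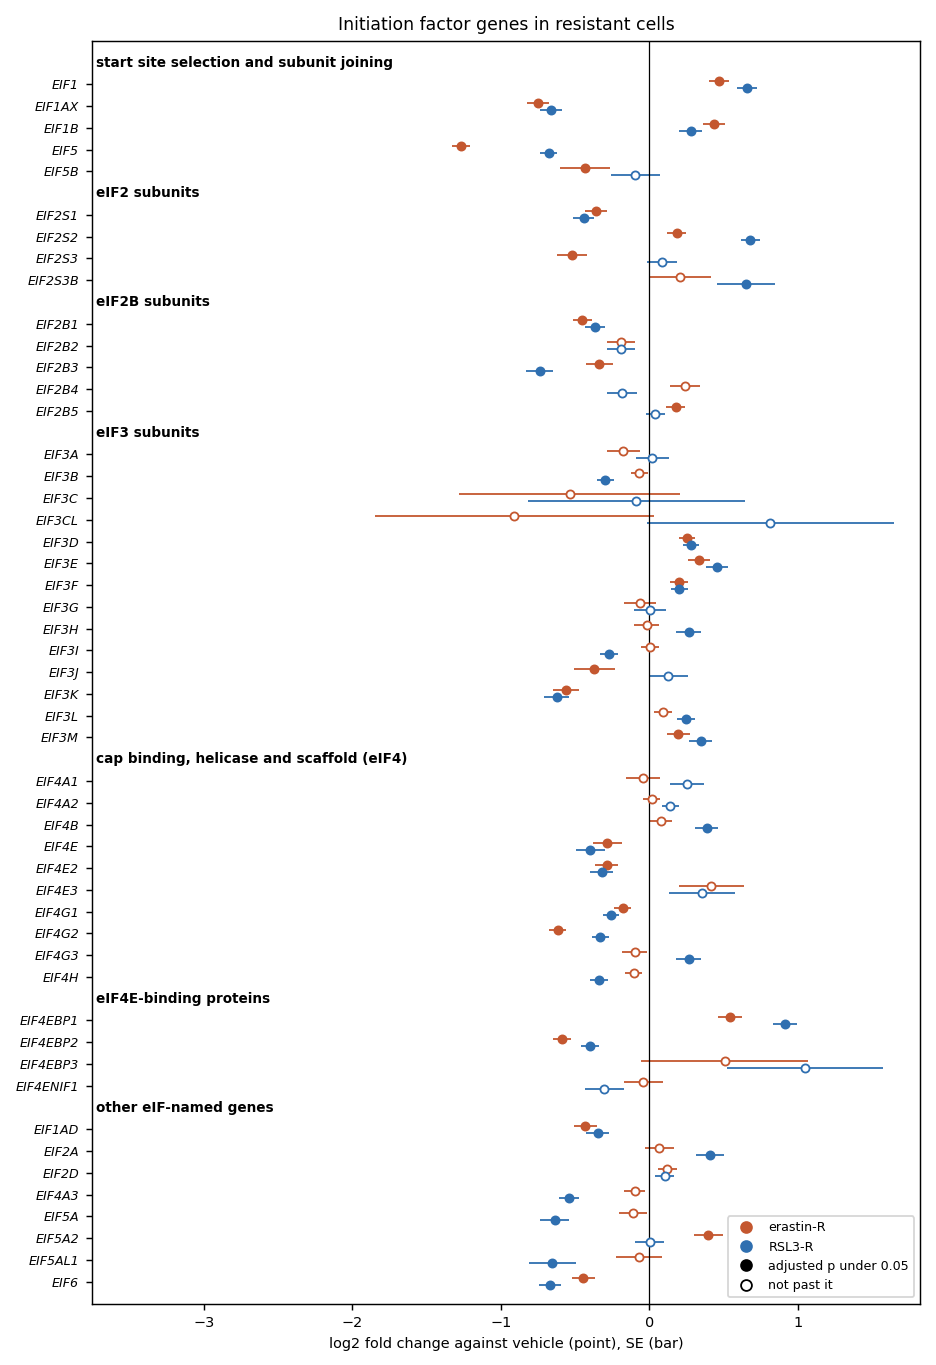
Log2 fold change against vehicle (points) with its standard error (bars) for the 50 initiation factor genes tested, grouped by role, in erastin-R and RSL3-R cells. Filled points are past an adjusted p of 0.05. EIF5 lies farthest to the left at -1.27 in erastin-R cells, and EIF3C and EIF3CL have the widest bars.

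Factors that select the start codon changed in opposite directions. Of the 5 tested genes of this group, which also holds the subunit joining factor eIF5B, 2 were higher and 3 lower in erastin-R cells, and 2 were higher and 2 lower in RSL3-R cells. Among all genes tested 27.1% were higher and 26.8% lower in erastin-R cells, and 23.8 and 24.9% in RSL3-R cells. EIF5 (chr14:103333544-103345025, plus strand, GRCh38) encodes the GTPase-activating protein of eIF2. Its level was 277, 290 and 286 CPM in the vehicle libraries, 122, 121 and 112 in erastin-R and 184, 175 and 175 in RSL3-R. All 3 conditions were separate, with erastin-R lowest. The log2 fold change was -1.27 ± 0.06 (SE, adjusted p = 1.5e-09) in erastin-R cells, where the level was 0.415 of that in vehicle cells, and -0.68 ± 0.06 (adjusted p = 3.9e-07) in RSL3-R cells. RSL3-R cells lay above erastin-R cells by 0.59 ± 0.06 on the log2 scale (adjusted p = 2.3e-06).

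EIF1 (chr17:41688885-41692668, plus strand) moved the other way. Its protein guards against initiation at the wrong codon and acts against eIF5 on the scanning ribosome. It had 498, 461 and 440 CPM in vehicle, 592, 673 and 673 in erastin-R and 736, 745 and 726 in RSL3-R libraries. Every erastin-R library was above every vehicle library, and every RSL3-R library was above both. The log2 fold change was 0.47 ± 0.07 (adjusted p = 3.7e-05) in erastin-R and 0.66 ± 0.07 (adjusted p = 1.9e-06) in RSL3-R cells. The difference between the resistant populations was 0.19 ± 0.06 (adjusted p = 0.027), and it no longer passed without RSL3-R library 2 (adjusted p = 0.080).

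The paralog EIF1B also rose in both, from 30.0 to 33.6 CPM in vehicle to 41.4 to 43.5 in erastin-R and 35.9 to 39.3 in RSL3-R libraries. Its log2 fold changes were 0.44 ± 0.08 (adjusted p = 0.00026) and 0.28 ± 0.08 (adjusted p = 0.0077). Of the start contexts shown above, only those of EIF1 and EIF1B lacked both favourable bases. EIF3B and the undetected EIF4E1B, not shown there, lacked them too. EIF3B fell in RSL3-R cells (-0.30 ± 0.06, adjusted p = 0.00061), so genes with this context did not share a direction. The ratio of EIF1 to EIF5 within a library, per length, needs no scaling between libraries. It was 4.22, 3.73 and 3.62 in vehicle, 11.4, 13.1 and 14.1 in erastin-R and 9.37, 10.01 and 9.74 in RSL3-R libraries, so the ranges of the 3 conditions did not overlap. As every resistant library was above vehicle for EIF1 and below it for EIF5, the separation from vehicle had to follow and adds no support. The same holds below for the ratios of EIF2S2 to EIF2S1 and of EIF4EBP1 to EIF4EBP2.

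EIF1AX encodes eIF1A, which works with eIF1 in scanning. It lay at 78.9, 81.8 and 88.1 CPM in vehicle, 48.2, 50.7 and 49.2 in erastin-R and 56.5, 51.6 and 49.1 in RSL3-R libraries. Both resistant populations were below vehicle and overlapped each other. The log2 fold changes were -0.75 ± 0.07 (adjusted p = 1.4e-06) and -0.66 ± 0.07 (adjusted p = 4.9e-06). EIF5B, the GTPase that joins the large subunit, had 198, 205 and 234 CPM in vehicle, 222, 124 and 125 in erastin-R and 200, 195 and 202 in RSL3-R libraries. Erastin-R library 1 sat inside the vehicle range and the other libraries of that condition far below it. Its call in erastin-R cells (-0.43 ± 0.17, adjusted p = 0.040) was lost in 10 of 14 alternatives, and without erastin-R library 1 the value was -0.77 ± 0.06 (adjusted p = 2.6e-12).

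**Figure D3:**
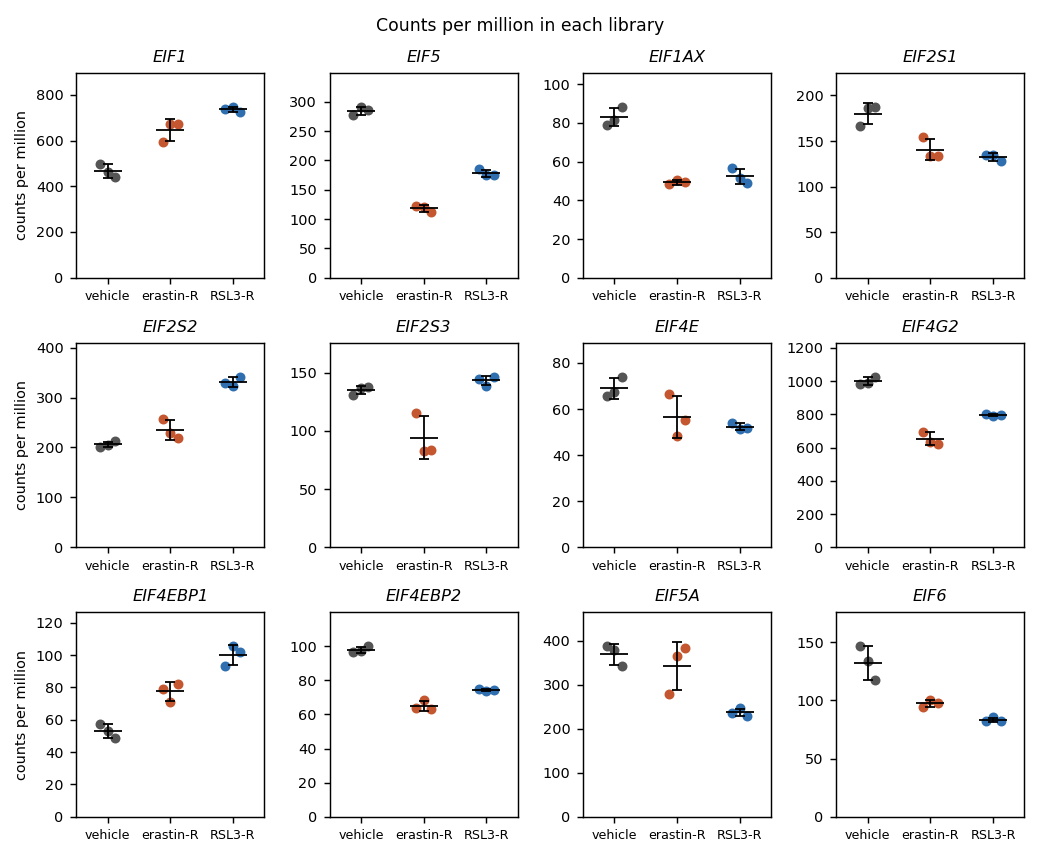
CPM in each library (points) for 12 initiation factor genes in vehicle, erastin-R and RSL3-R cells, with the mean (dash) and SD (bar) of 3 libraries. EIF5 fell from 277 to 290 CPM in vehicle to 112 to 122 in erastin-R libraries, while EIF1, EIF2S2 and EIF4EBP1 were higher in every resistant library than in every vehicle library.

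The subunits of eIF2, which carries the initiator tRNA, did not move together. EIF2S1, the alpha subunit that stress kinases phosphorylate, had 167, 186 and 187 CPM in vehicle, 154, 133 and 134 in erastin-R and 135, 135 and 128 in RSL3-R libraries. All resistant libraries were below all vehicle libraries. It fell by 0.36 ± 0.07 on the log2 scale in erastin-R (adjusted p = 0.00073) and by 0.44 ± 0.07 in RSL3-R cells (adjusted p = 0.00016). EIF2S2, the beta subunit (chr20:34088298-34112332, minus strand), had 202, 205 and 212 CPM in vehicle, 257, 229 and 219 in erastin-R and 329, 323 and 342 in RSL3-R libraries. The conditions were separate, with RSL3-R highest. Its log2 fold change was 0.68 ± 0.06 (adjusted p = 1.2e-06) in RSL3-R cells and 0.19 ± 0.06 in erastin-R cells, where the call (adjusted p = 0.025) was lost in 3 of 14 alternatives. RSL3-R was above erastin-R by 0.50 ± 0.06 (adjusted p = 2.8e-05). Pseudogenes share 22.6% of its 50-base words, so some of its reads may have been dropped.

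EIF2S3, the gamma subunit that binds the tRNA (chrX:24054716-24077971, plus strand), had 131, 137 and 138 CPM in vehicle, 115, 83.1 and 83.8 in erastin-R and 145, 139 and 146 in RSL3-R libraries. Only the erastin-R libraries were below vehicle. The log2 fold change was -0.52 ± 0.10 (adjusted p = 0.00060) in erastin-R and 0.09 ± 0.10 (adjusted p = 0.51) in RSL3-R cells, and the direct difference was 0.61 ± 0.10 (adjusted p = 0.00022). Without erastin-R library 1 the value in erastin-R cells was -0.70 ± 0.05 (adjusted p = 3.7e-12). Its copy EIF2S3B, with 2.21 to 4.32 CPM, rose in RSL3-R cells (0.65 ± 0.20, adjusted p = 0.014), a call lost without RSL3-R library 1 or vehicle library 1. Of the 50-base words of EIF2S3B 26.8% also occur in EIF2S3, so both values are uncertain. Per length, the ratio of EIF2S2 to EIF2S1 was 2.34 to 2.58 in vehicle, 3.47 to 3.66 in erastin-R and 5.10 to 5.69 in RSL3-R libraries.

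Among the 5 subunits of eIF2B, the exchange factor of eIF2, 1 was higher and 2 lower in erastin-R cells, and 2 were lower in RSL3-R cells. The shares of all genes tested were 27.1% higher and 26.8% lower in erastin-R cells, and 23.8 and 24.9% in RSL3-R cells. EIF2B1, a regulatory subunit, went from 103, 104 and 108 CPM in vehicle to 80.04, 74.1 and 76.4 in erastin-R and 87.0, 76.4 and 81.1 in RSL3-R libraries. It fell by 0.45 ± 0.07 (adjusted p = 5.5e-05) and by 0.37 ± 0.07 (adjusted p = 0.00037) on the log2 scale. EIF2B3, of the catalytic subcomplex, had 30.5, 33.1 and 34.9 CPM in vehicle, 27.8, 24.4 and 25.7 in erastin-R and 17.9, 20.2 and 20.9 in RSL3-R libraries, with no overlap between conditions. Its log2 fold changes were -0.34 ± 0.09 (adjusted p = 0.0064) and -0.74 ± 0.09 (adjusted p = 1.8e-05), the lowest value of all called genes of the list in RSL3-R cells.

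EIF2B5, the catalytic subunit itself, had 105 to 111 CPM in vehicle, 112 to 129 in erastin-R and 110 to 112 in RSL3-R libraries. Its rise in erastin-R cells (0.18 ± 0.06, adjusted p = 0.030) was lost in 8 of 14 alternatives. EIF2B4 passed only between the resistant populations, with 28.8, 24.5 and 31.9 CPM in erastin-R and 20.7, 20.7 and 22.1 in RSL3-R libraries (log2 fold change -0.43 ± 0.10, adjusted p = 0.0030). EIF2B2, with 35.8 to 48.0 CPM over all libraries, passed in no comparison (-0.19 ± 0.10 against vehicle in each, adjusted p = 0.11 and 0.12). With erastin-R library 1 left out it was lower in both, at -0.30 ± 0.08 (adjusted p = 0.0015) and -0.19 ± 0.07 (adjusted p = 0.019). Reads of EIF2B2 and EIF2B1 could in part belong to genes on the opposite strand, which overlap 23.6 and 15.6% of their exons, since the use of strand in counting is not given in the sources used here.

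The 14 genes of eIF3, the large complex that bridges mRNA and the small subunit, were higher in 4 and lower in 2 cases in erastin-R cells, and higher in 6 and lower in 3 in RSL3-R cells. The median log2 fold change of these 14 genes was -0.04 and 0.17. Of all genes tested, 27.1% were higher and 26.8% lower in erastin-R cells, and 23.8 and 24.9% in RSL3-R cells. EIF3D, the subunit able to bind caps, rose by 0.25 ± 0.05 and 0.28 ± 0.05 on the log2 scale (adjusted p = 0.0011 and 0.00058), from 183 to 188 CPM in vehicle to 218 to 227 and 219 to 231. EIF3E rose most of the called subunits in both, by 0.34 ± 0.07 (adjusted p = 0.0013) and 0.46 ± 0.07 (adjusted p = 0.00014). It had 316, 334 and 372 CPM in vehicle, 467, 413 and 409 in erastin-R and 474, 447 and 481 in RSL3-R libraries, all resistant libraries above all vehicle libraries.

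The module partners EIF3F and EIF3M were also higher in both. EIF3F had log2 fold changes of 0.20 ± 0.06 in each (adjusted p = 0.010 and 0.011), both lost without vehicle library 2. EIF3M had 0.19 ± 0.08 in erastin-R cells (adjusted p = 0.046), lost in 9 of 14 alternatives, and 0.35 ± 0.08 in RSL3-R cells (adjusted p = 0.0020). EIF3L and EIF3H passed in RSL3-R cells, with 0.25 ± 0.06 (adjusted p = 0.0043) and 0.27 ± 0.08 (adjusted p = 0.017). A same-strand gene covers 41.1% of the exons of EIF3L, so its counts are uncertain, and the call of EIF3H was lost without vehicle library 1 or 2. In erastin-R cells EIF3H had -0.02 ± 0.08 (adjusted p = 0.89), and -0.14 ± 0.05 (adjusted p = 0.011) without erastin-R library 1.

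EIF3K, a peripheral subunit that is dispensable for the core complex, fell in both, with 111, 116 and 115 CPM in vehicle, 89.2, 67.8 and 75.2 in erastin-R and 71.0, 74.0 and 77.3 in RSL3-R libraries. All resistant libraries lay below all vehicle libraries. The log2 fold changes were -0.56 ± 0.09 (adjusted p = 8.7e-05) and -0.62 ± 0.09 (adjusted p = 4.1e-05). EIF3B and EIF3I, core subunits that bind each other, fell in RSL3-R cells, by 0.30 ± 0.06 (adjusted p = 0.00061) and 0.27 ± 0.06 (adjusted p = 0.0025), and had -0.07 ± 0.06 and 0.00 ± 0.06 in erastin-R cells. EIF3J, the loosely bound subunit, had 74.1, 81.5 and 88.4 CPM in vehicle, 82.4, 54.2 and 52.2 in erastin-R and 86.7, 91.7 and 88.4 in RSL3-R libraries. It had -0.37 ± 0.14 in erastin-R cells (adjusted p = 0.033), lost in 5 of 14 alternatives and at -0.61 ± 0.07 (adjusted p = 8.9e-09) without erastin-R library 1.

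EIF3A and EIF3G passed in neither comparison with vehicle. EIF3A, the largest scaffold subunit, had 403, 410 and 407 CPM in vehicle, 457, 318 and 306 in erastin-R and 403, 417 and 418 in RSL3-R libraries. Without erastin-R library 1 it was lower in erastin-R cells (-0.38 ± 0.04, adjusted p = 6.5e-09), and it was also called with all libraries when low counts were not filtered. EIF3G likewise passed only without that library (-0.22 ± 0.07, adjusted p = 0.0065). EIF3C and EIF3CL, near-identical copies on chromosome 16, varied more within a condition than between conditions. EIF3C had 21.5, 33.1 and 12.6 CPM in vehicle, 36.0, 3.31 and 6.69 in erastin-R and 48.0, 8.95 and 6.72 in RSL3-R libraries. As 97.3% of the 50-base words of EIF3CL also occur in EIF3C and only uniquely mapped reads were counted, neither level can be read as expression of its gene.

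**Figure D4:**
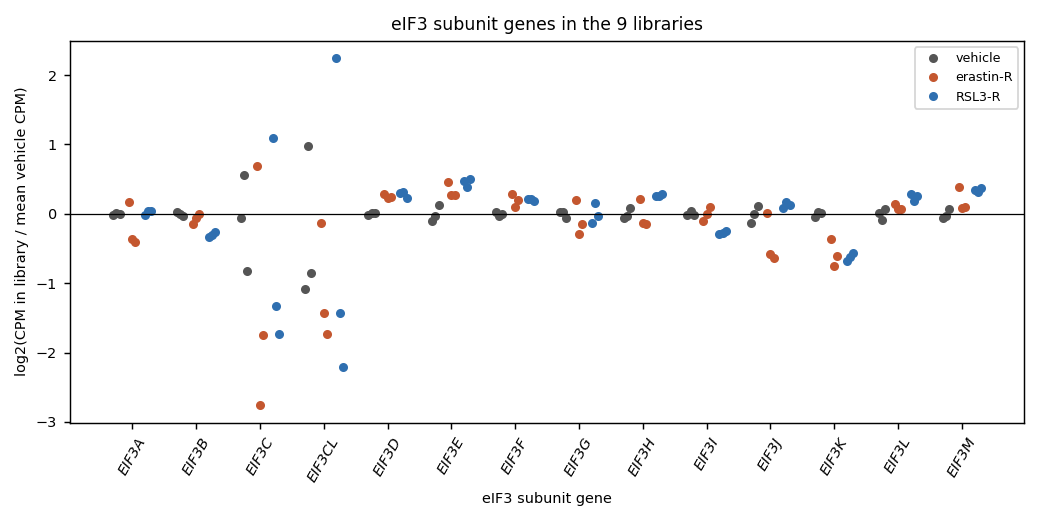
Log2 ratio of CPM in each of the 9 libraries to the vehicle mean, for the 14 eIF3 subunit genes. EIF3E lay above and EIF3K below the vehicle libraries in every resistant library, erastin-R library 1 (left point of its condition) stood apart for EIF3A and EIF3J, and EIF3C and EIF3CL scattered within every condition.

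The cap-binding group held 10 tested genes, of which 0 were higher and 4 lower in erastin-R cells, and 2 were higher and 5 lower in RSL3-R cells. Over all genes tested 27.1% were higher and 26.8% lower in erastin-R cells, and 23.8 and 24.9% in RSL3-R cells. No test of the group's share was made. No gene of the group rose in erastin-R cells at an unadjusted p under 0.05 either, and DESeq2 likewise called 0. EIF4E, the cap-binding protein that limits initiation on many growth mRNAs, had 65.6, 67.2 and 74.0 CPM in vehicle, 66.3, 48.3 and 55.4 in erastin-R and 54.0, 51.5 and 51.5 in RSL3-R libraries. RSL3-R libraries were below vehicle, and erastin-R library 1 overlapped it. It fell by 0.40 ± 0.10 on the log2 scale in RSL3-R cells (adjusted p = 0.0041). The fall of 0.28 ± 0.10 in erastin-R cells (adjusted p = 0.025) was lost in 4 of 14 alternatives. EIF4E2, a cap-binding homolog tied to translational repression, fell by 0.29 ± 0.08 and 0.32 ± 0.08 (adjusted p = 0.0067 and 0.0039), though genes on the opposite strand overlap 24.2% of its exons.

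The scaffold EIF4G1 had 951, 951 and 901 CPM in vehicle, 855, 785 and 835 in erastin-R and 753, 793 and 801 in RSL3-R libraries, lower in every resistant library. Its log2 fold changes were -0.18 ± 0.06 (adjusted p = 0.014, lost without erastin-R library 2 or vehicle library 2) and -0.26 ± 0.06 (adjusted p = 0.0016). EIF4G2, which lacks the eIF4E-binding region, changed more. Its log2 fold changes were -0.62 ± 0.06 (adjusted p = 7.1e-07) and -0.33 ± 0.06 (adjusted p = 0.00024), with 623 to 697 CPM in erastin-R and 789 to 800 in RSL3-R libraries, all below the vehicle libraries. EIF4G3, a further scaffold, had 160 to 172 CPM in vehicle, 136 to 179 in erastin-R and 196 to 203 in RSL3-R libraries, and rose in RSL3-R cells (0.27 ± 0.08, adjusted p = 0.017, lost without vehicle library 1 or 2). In erastin-R cells it had -0.10 ± 0.08 (adjusted p = 0.34), and -0.22 ± 0.05 (adjusted p = 0.00039) without erastin-R library 1.

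Of the eIF4A cofactors, EIF4B rose and EIF4H fell in RSL3-R cells. EIF4B had 387, 374 and 376 CPM in vehicle, 461, 358 and 380 in erastin-R and 498, 499 and 490 in RSL3-R libraries (log2 fold change 0.39 ± 0.08, adjusted p = 0.00096). Other genes, pseudogenes among them, share 27.6% of the 50-base words of EIF4B, so some of its reads may have been dropped. EIF4H had 461, 426 and 397 CPM in vehicle and 341, 338 and 336 in RSL3-R libraries (-0.34 ± 0.06, adjusted p = 0.00038). The helicase EIF4A2 lay between 611 and 698 CPM in all libraries and passed in no comparison, though its value in RSL3-R cells (0.14 ± 0.06, adjusted p = 0.053) passed in 4 of 14 alternatives, DESeq2 among them. It also passed between the resistant populations when erastin-R library 1 was left out (0.17 ± 0.04, adjusted p = 0.00057). EIF4A1, the main helicase of most growing cells, showed only 34.4 to 51.7 CPM. Read-through genes on the same strand overlap 48.6% of its exons, so its reads may have been split or dropped, and its call between the resistant populations (0.30 ± 0.12, adjusted p = 0.048) was lost in 4 of 14 alternatives, while its value in RSL3-R cells (0.26 ± 0.12, adjusted p = 0.085) passed in 4 of 14.

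The 4E-BPs, which compete with eIF4G for eIF4E, moved in opposite directions. EIF4EBP1 had 57.4, 52.9 and 48.9 CPM in vehicle, 79.0, 71.1 and 82.3 in erastin-R and 93.1, 105 and 102 in RSL3-R libraries. The conditions did not overlap, with RSL3-R highest. Its log2 fold change was 0.55 ± 0.08 (adjusted p = 6.6e-05) in erastin-R and 0.92 ± 0.08 (adjusted p = 6.0e-07) in RSL3-R cells, a level 1.46 and 1.89 times that in vehicle cells. The difference between the resistant populations was 0.37 ± 0.08 (adjusted p = 0.0016). It was the largest rise among the called genes in both comparisons with vehicle.

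EIF4EBP2, whose protein has the same function, fell. It had 96.6, 97.1 and 99.9 CPM in vehicle, 64.0, 68.5 and 63.0 in erastin-R and 75.0, 74.0 and 74.1 in RSL3-R libraries, again with no overlap. The log2 fold changes were -0.59 ± 0.06 (adjusted p = 2.3e-06) and -0.40 ± 0.06 (adjusted p = 8.9e-05). Per length, EIF4EBP1 stood at 3.31 to 4.01 times EIF4EBP2 in vehicle, 7.02 to 8.83 times in erastin-R and 8.40 to 9.63 times in RSL3-R libraries. Against EIF4E itself, EIF4EBP1 stood at 8.66 to 11.5 times in vehicle, 15.6 to 19.5 in erastin-R and 22.6 to 26.8 in RSL3-R libraries. The size of these ratios depends on the gene lengths used, while their change between conditions does not. EIF4EBP3 was near the floor at 0.238 to 0.774 CPM and passed in no comparison, and 73.4% of its exons overlap a read-through gene. EIF4ENIF1, the carrier that takes eIF4E into the nucleus, also passed in no comparison, and its value in RSL3-R cells (-0.30 ± 0.13, adjusted p = 0.072) passed in 4 of 14 alternatives.

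Of the 8 other genes, 1 was higher and 2 lower in erastin-R cells, and 1 was higher and 5 lower in RSL3-R cells. Across all genes tested 27.1% were higher and 26.8% lower in erastin-R cells, and 23.8 and 24.9% in RSL3-R cells. EIF6, which keeps the large subunit from joining too early, had 146, 134 and 117 CPM in vehicle, 93.9, 101 and 97.5 in erastin-R and 81.9, 85.4 and 82.4 in RSL3-R libraries. All resistant libraries were below vehicle, with log2 fold changes of -0.44 ± 0.08 (adjusted p = 0.00022) and -0.67 ± 0.08 (adjusted p = 7.05e-06). A same-strand gene overlaps 17.4% of the exons of EIF6, so some of its reads may have been dropped. EIF5A, the hypusine-bearing factor that also serves elongation, had 387, 379 and 341 CPM in vehicle, 279, 366 and 382 in erastin-R and 236, 246 and 230 in RSL3-R libraries. Only the RSL3-R libraries were clear of vehicle (-0.64 ± 0.10, adjusted p = 9.2e-05). Its copy EIF5AL1 showed -0.65 ± 0.16 in RSL3-R cells (adjusted p = 0.0039), and as 20.6% of the 50-base words of EIF5A occur in other genes, EIF5AL1 among them, both values are uncertain.

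EIF5A2, the second hypusinated form, differed from EIF5A. It had 28.7, 27.5 and 32.7 CPM in vehicle, 40.6, 35.2 and 41.2 in erastin-R and 29.3, 27.4 and 32.3 in RSL3-R libraries, above vehicle only in erastin-R cells (0.40 ± 0.10, adjusted p = 0.0030). EIF4A3, the helicase of the exon junction complex, fell in RSL3-R cells by 0.54 ± 0.07 (adjusted p = 2.3e-05), from 131 to 134 CPM to 90.4 to 91.4. EIF2A, a factor separate from eIF2 that can deliver initiator tRNA, rose there by 0.41 ± 0.10 (adjusted p = 0.0031). EIF1AD fell in both, by 0.43 ± 0.08 and 0.35 ± 0.08 (adjusted p = 0.00033 and 0.0020). EIF2D passed in no comparison.

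Compared directly, RSL3-R cells were above erastin-R cells most for EIF2S3, EIF5, EIF3J (0.50 ± 0.14, adjusted p = 0.0075), EIF2S2, EIF4EBP1, EIF4G3 (0.36 ± 0.08, adjusted p = 0.0024), EIF2A (0.34 ± 0.10, adjusted p = 0.0097) and EIF4B (0.31 ± 0.08, adjusted p = 0.0045). They were below most for EIF5AL1 (-0.58 ± 0.16, adjusted p = 0.0080), EIF5A (-0.53 ± 0.10, adjusted p = 0.00045), EIF4A3 (-0.44 ± 0.07, adjusted p = 0.00015), EIF2B4, EIF2B3 (-0.40 ± 0.09, adjusted p = 0.0030), EIF5A2 (-0.39 ± 0.10, adjusted p = 0.0037), EIF3I (-0.27 ± 0.06, adjusted p = 0.0022) and EIF4H (-0.23 ± 0.06, adjusted p = 0.0057). The count of 14 higher genes rose to 23 without erastin-R library 1, and the count of 10 lower genes was then 11. The shares of all genes called in that fit are not given here, so this rise cannot be read as particular to these genes.

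The pathway around these factors was covered by 48 genes in 4 lists, of which 46 were tested. In erastin-R cells 12 were higher and 14 lower, and in RSL3-R cells 12 were higher and 15 lower, with median log2 fold changes of 0.002 and -0.021, beside -0.004 and 0.005 over all genes. The called shares of all genes tested were 27.1% higher and 26.8% lower in erastin-R cells, and 23.8 and 24.9% in RSL3-R cells. These shares are also the background for the counts of each list below, and no test of the lists was made. Of the 9 eIF2 kinase and phosphatase genes, 4 were higher and 2 lower in erastin-R cells, and 3 were higher and 2 lower in RSL3-R cells. PPP1R15A, the stress-inducible subunit (GADD34) that directs phosphatase PP1 to eIF2 alpha, had 152, 142 and 123 CPM in vehicle, 276, 223 and 232 in erastin-R and 295, 336 and 319 in RSL3-R libraries. The conditions were separate, and the log2 fold changes were 0.81 ± 0.09 (adjusted p = 5.7e-06) and 1.19 ± 0.09 (adjusted p = 1.7e-07). The constitutive subunit gene PPP1R15B, named after its values were seen, rose by 0.41 ± 0.07 and 0.62 ± 0.07 (adjusted p = 0.00014 and 3.9e-06). The genes of phosphatase PP1 itself, also named after their values were seen, were not called higher. PPP1CA fell in both, with -0.54 ± 0.07 and -0.84 ± 0.07 (adjusted p = 1.5e-05 and 3.1e-07). Opposite-strand genes overlap 26.9% of its exons. PPP1CC fell in RSL3-R cells only (-0.47 ± 0.06, adjusted p = 2.2e-05), and PPP1CB passed in neither comparison.

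The kinases of eIF2 alpha were mixed. EIF2AK4 (GCN2), which senses uncharged tRNA, rose by 0.30 ± 0.06 and 0.43 ± 0.06 (adjusted p = 0.0012 and 9.2e-05). EIF2AK2 (PKR), which senses double-stranded RNA, fell in erastin-R cells by 0.50 ± 0.09 (adjusted p = 0.00027) and had -0.15 ± 0.09 in RSL3-R cells (adjusted p = 0.17). EIF2AK3 (PERK), the kinase of the endoplasmic reticulum, rose in erastin-R cells (0.28 ± 0.10, adjusted p = 0.025) and had 0.03 ± 0.10 in RSL3-R cells (adjusted p = 0.84). Opposite-strand sequence of other genes overlaps 15.1% of the exons of EIF2AK3. EIF2AK1 (HRI), which responds to heme shortage, passed in neither comparison (0.19 ± 0.08 and 0.14 ± 0.08, adjusted p = 0.060 and 0.17).

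Among the 17 initiation genes without an EIF symbol, 6 were higher and 6 lower in erastin-R cells, and 4 were higher and 4 lower in RSL3-R cells. CTIF, an eIF4G-like scaffold that works with the nuclear cap-binding complex, had 28.6, 29.6 and 27.7 CPM in vehicle, 55.0, 67.5 and 67.9 in erastin-R and 44.1, 49.5 and 47.3 in RSL3-R libraries. It rose by 1.15 ± 0.09 (adjusted p = 1.8e-07) and 0.71 ± 0.09 (adjusted p = 1.9e-05) on the log2 scale, with no overlap between conditions. PDCD4, an inhibitor of eIF4A named after its values were seen, rose by 0.94 ± 0.12 and 0.77 ± 0.12 (adjusted p = 1.9e-05 and 0.00013). Opposite-strand sequence of other genes overlaps 28.1% of the exons of PDCD4, so some of its reads could belong to those genes. NCBP1, of the nuclear cap-binding complex and also named after its values were seen, had the largest falls of this list. Its log2 fold changes were -0.77 ± 0.07 and -0.63 ± 0.07 (adjusted p = 5.4e-07 and 4.2e-06). Of the 9 kinase genes acting on eIF4E, eIF4B and the 4E-BPs, 1 was higher and 4 lower in erastin-R and 2 were higher and 5 lower in RSL3-R cells. The largest fall of this list in RSL3-R cells was that of RPS6KA1, named after its values were seen (-0.89 ± 0.09, adjusted p = 1.6e-06). Of the 11 tested genes of elongation and termination, 1 was higher and 2 lower in erastin-R and 3 were higher and 4 lower in RSL3-R cells.

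**Figure D5:**
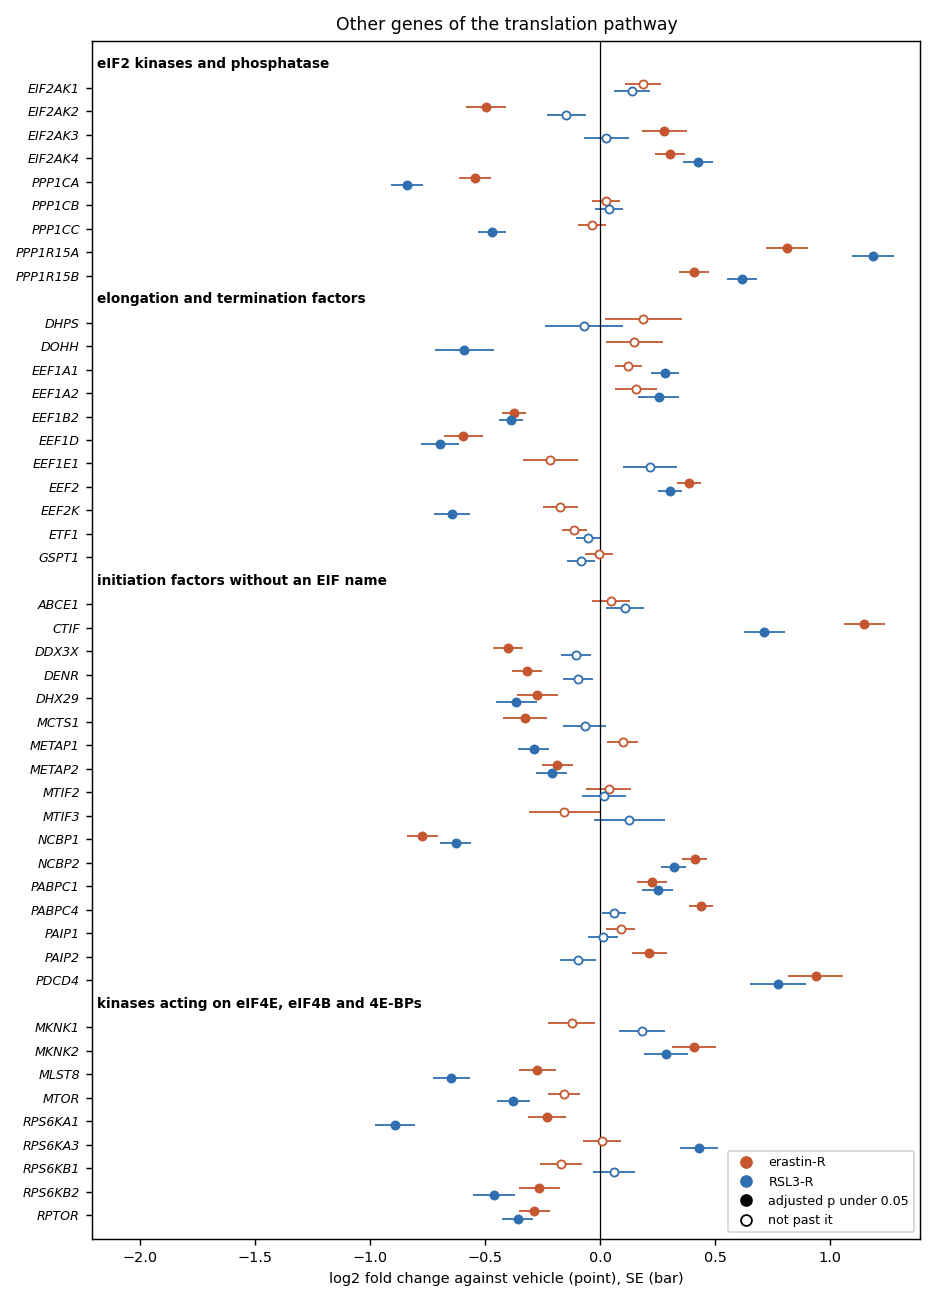
Log2 fold change against vehicle (points) with its standard error (bars) for the 46 tested genes of the 4 pathway lists in erastin-R and RSL3-R cells. Filled points are past an adjusted p of 0.05. CTIF reaches 1.15 in erastin-R cells and PPP1R15A 1.19 in RSL3-R cells, the only called values of at least 1 in size.

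Promoters of these genes were searched on both strands for 3 motifs, from 250 bases before to 50 after the start in RefSeq's annotation (GRCh38.p14). They matched for 44 of the 52 genes, with 60 promoters. The C/EBP-ATF element TGATGNAA stood in 1 of 60, against 3.62% of 35116 promoters of all genes. The ETS core GGAAGT stood in 18 of 60, against 22.8%. The E-box CACGTG, read by MYC and related factors, stood in 11 of 60 (18.3%), against 7.26%, and no test of this difference was made. None of the 3 motifs contains another, and a match is a description, not a bound site.

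The 60 bases around the E-box nearest the start are shown for the cap-binding protein, its scaffold, and 2 genes that rose, since E-boxes in the first are a textbook feature of growth control. They are written 5′ to 3′ on the strand of the gene with the E-box in capitals.
EIF4E (chr4:98929172-98929231, minus strand): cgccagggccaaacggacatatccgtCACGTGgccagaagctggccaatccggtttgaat
EIF4G1 (chr3:184314513-184314572, plus strand): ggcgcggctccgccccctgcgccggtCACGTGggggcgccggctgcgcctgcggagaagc
EIF1B (chr3:40309627-40309686, plus strand): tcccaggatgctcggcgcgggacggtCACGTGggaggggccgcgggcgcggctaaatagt
EIF4B (chr12:53006396-53006455, plus strand): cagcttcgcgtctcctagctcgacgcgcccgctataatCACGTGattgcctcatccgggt

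The genes with an E-box did not share a direction. EIF4E, EIF4G1, EIF2B3 and EIF3K were lower and EIF1B and EIF3F higher in both resistant populations, EIF4A3 and EIF4H were lower and EIF4B higher in RSL3-R cells only, EIF5A2 was higher in erastin-R cells, and EIF4EBP3 passed in no comparison.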

How the data were processed

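RNA of 9 libraries was sequenced, 3 each of vehicle, erastin-R and RSL3-R MDA-MB-231 cells, with treatments and replicate numbers taken from the sample labels. The labels say treated with DMSO, erastin or RSL3, and the names erastin-R and RSL3-R for surviving cells are those of the study's legends. The authors deposited, per library, the count of reads on each gene without normalization, and FPKM values that were used for no result here. Per the labels' processing notes, HISAT2 2.0.5 and featureCounts 1.5.0-p3 were used. The methods describe poly-A selection and uniquely mapped reads in exons, and the use of strand in counting is not given in the sources used here. All 58735 gene identifiers were found in GENCODE release 29 (GRCh38), 58724 of them with the same start and end. Every row had a gene name.

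After filterByExpr, edgeR 4.0.16 (R 4.3.3) fitted the counts of 16188 genes with TMM scaling and condition as the only term, and its quasi-likelihood test gave the p-values. A gene was called at a Benjamini-Hochberg adjusted p under 0.05, with no minimum change. The study's methods name Cufflinks, which needs reads. The standard error of a log2 value was derived from its F statistic. Spread between replicates was 8.56% (coefficient of variation from edgeR's common dispersion). CPM were scaled by TMM, and TPM were computed from the counts and the deposited gene lengths. Alternatives were median-ratio size factors, no filter, DESeq2 1.42.0, only the 2 conditions compared, a replicate block, and each library left out in turn. The script was tested on simulated data. Overlaps with other genes and shared 50-base words were computed from GENCODE release 29. Python 3.11.15 with matplotlib 3.10.9 made the plots.

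The genes, their groups, the pathway lists and the tests were chosen with earlier results of these data known. The genes named are, per comparison, up to 8 called rises and 8 called falls, the subunits of eIF2, eIF2B and eIF3, the eIF4 and 4E-BP genes, EIF1, EIF5, EIF5A and EIF6, and from the pathway lists the eIF2 kinases, PPP1R15A and called genes that moved by 1 or more on the log2 scale against vehicle. Others are named for completeness of their group, after their values were seen.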

Additional observations from a re-analysis of the deposited data

Results flagged for a closer look

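Groups of 3 libraries are too small for a test of single outlying values, so none was made. In 5 genes the log2 fold change against vehicle had opposite signs in erastin-R and RSL3-R cells, at least 1 of these was called, and the resistant populations differed in edgeR's direct test. For EIF2S3 the difference (RSL3-R against erastin-R) was 0.61 ± 0.10 (SE, adjusted p = 0.00022), with -0.52 in erastin-R and 0.09 for RSL3-R cells. For EIF3J it was 0.50 ± 0.14 (adjusted p = 0.0075), with -0.37 and 0.13. For EIF4G3 it was 0.36 ± 0.08 (adjusted p = 0.0024), with -0.10 and 0.27. For EIF3H it was 0.28 ± 0.08 (adjusted p = 0.013), with -0.02 and 0.27. For EIF3I it was -0.27 ± 0.06 (adjusted p = 0.0022), with 0.00 and -0.27. In each gene at least 1 of the values against vehicle did not pass the threshold with all libraries. The values of EIF2S3 and EIF3J in RSL3-R cells and of EIF3H and EIF3I in erastin-R cells were smaller than their SE. The sign of these values is thus uncertain. Without erastin-R library 1, EIF4G3 was called lower in erastin-R (-0.22, adjusted p = 0.00039) and higher in RSL3-R cells (0.26, adjusted p = 8.5e-06), and so was EIF3H (-0.14, adjusted p = 0.011, and 0.26, adjusted p = 3.6e-06). Without erastin-R library 1 the difference was 0.78 ± 0.05 for EIF2S3, 0.74 ± 0.07 for EIF3J, 0.49 ± 0.05 for EIF4G3 and 0.41 ± 0.05 for EIF3H. Of the 5 differences only that of EIF3H was lost in some alternatives, namely without erastin-R library 2 or 3 (adjusted p up to 0.065).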

How the results depend on the processing

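Each of 14 alternatives was run for the 50 genes and for 12 counts. None of the called genes changed sign in any of them. Of 26 called genes in erastin-R cells 18 stayed called in every alternative, of 33 in RSL3-R cells 29 did, and of 24 between the resistant populations 16 did. Of the genes not called, 9, 5 and 11 were called in at least 1 alternative. None of the 60 counts from other scaling, no filter, DESeq2, the 2 conditions alone or the replicate block moved by more than 1.5 times.

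With each library left out in turn, genes higher in erastin-R cells numbered 6 to 10, with 6 without vehicle library 2, and genes higher in RSL3-R than in erastin-R cells numbered 10 to 23, with 23 without erastin-R library 1. Pathway genes higher in RSL3-R than in erastin-R cells numbered 6 to 16, with 16 without erastin-R library 1 and 6 without library 2 or 3. The shares of all genes called in these fits are not given here. The study's thresholds, an adjusted p with a change of 1 or more on the log2 scale or an unadjusted p with a fold change above 2, left 0 genes higher and 1 lower in erastin-R cells, and 0 higher and 0 lower in RSL3-R cells and between the resistant populations, because they add a minimum change that these genes seldom reached.

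With the replicate block 8 genes were higher and 16 lower in erastin-R, 14 higher and 19 lower in RSL3-R cells. Libraries of the same number were not closer than others (mean correlation of deviations -0.0049 over 9 pairs, against 0.0026 over 18 pairs), so the numbers were not taken as pairs. The depth limits EIF4EBP3, EIF4E3 and EIF2S3B, which have few counts, and mapping limits EIF3C and EIF3CL.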
